A study of Arabidopsis thaliana with 2 samples.

Results

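The transcripts described here are those with a signal at least 4-fold lower in young rosette leaves of the activation-tagged Arabidopsis thaliana line BOUNTIFUL than in wild-type Ws-0. They were chosen from the values they are described by, as probe sets with a mean signal over both arrays of at least 39.9 units and a log2 ratio of BOUNTIFUL over Ws-0 of -2 or lower. The ratio was taken after adding a pseudocount of 7.77 units to both signals. The genes AT1G67860, AT1G67865, AT1G67870 and AT4G24450 also met these limits and were left out by name. The choice left 37 of the 22746 Arabidopsis probe sets on the array, 11373 of which reached the limit on mean signal. With the 4 genes left out counted back in, 41 of the 11373 (0.361%) met the limit on the ratio. That share describes the selection and says nothing further about the members.

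Each genotype was represented by 1 array, so no difference was tested and every value below compares a pair of RNA samples. BOUNTIFUL carries an insert that the labels call Activation Tag I/dSpm at a locus named BOU, in the Ws-0 background that the control shares. An activation tag carries an enhancer that can raise the transcription of nearby genes. RNA came from a mixture of the 4 youngest rosette leaves of plants at developmental stage 6.50, raised on compost under glass at 23 °C in days with 16 h of light. The sources used here give neither the number of plants behind each RNA sample nor the gene that the insert activates. In RNA from whole leaves, fewer cells of a type and less RNA per cell cannot be told apart.

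An Affymetrix ATH1 array reads a transcript through a set of short probes, summarised by MAS5 as 1 brightness value on a linear scale. Such a signal stays above 0 even for a silent gene, and probes can also bind some unrelated RNA. A low signal therefore sets only an upper limit on a transcript, and a ratio against it sets only a lower limit on the fold. The 27 probe sets for Bacillus subtilis genes, which have no target in a leaf, reached 21.9 units on the BOUNTIFUL array and 16.7 on the Ws-0 array. Their medians were 1.27 and 2.45 units, so the limit used here rests on the brightest of them. A BOUNTIFUL signal of at most 21.9 units was taken as near background, one from there to 39.9 units as dim, and one of 39.9 units or more as still expressed. The arrays had median signals of 38.9 units in BOUNTIFUL and 39.0 units in Ws-0. The leaf marker RCA, Rubisco activase, had 3587 units in BOUNTIFUL and 4492 units in Ws-0. The other leaf markers with a named probe set were higher in BOUNTIFUL. LHCB4.1 had 3729 against 3210 units and LHCB4.2 had 261 against 158. These 3 leaf markers, of 10 listed, passed the limit on mean signal. None of the 5 named markers of root, flower and pollen passed it, with signals from 1.10 to 26.1 units, while the other marker genes on those lists and all 4 seed markers had no probe set named here.

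In BOUNTIFUL, 11 of the 37 probe sets were near background, 8 were dim and 18 were still expressed. The first count depended on the limit, and 2 members lay below the 20th percentile of BOUNTIFUL signals, 7.81 units. BOUNTIFUL signals had a lowest value of 5.53 units, a median of 33.2 and a highest of 239. Ws-0 signals had a lowest value of 77.2, a median of 295 and a highest of 1562 units. The ranges of the genotypes overlapped, since the brightest members in BOUNTIFUL exceeded the dimmest in Ws-0. Within its own array, the median member stood at the 46.3rd percentile of Arabidopsis probe sets in BOUNTIFUL and at the 89.9th in Ws-0. No member was near background in Ws-0, which the limits on mean signal and ratio fixed in advance. The high Ws-0 percentile follows in part from the same limits.

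**Figure D1:**
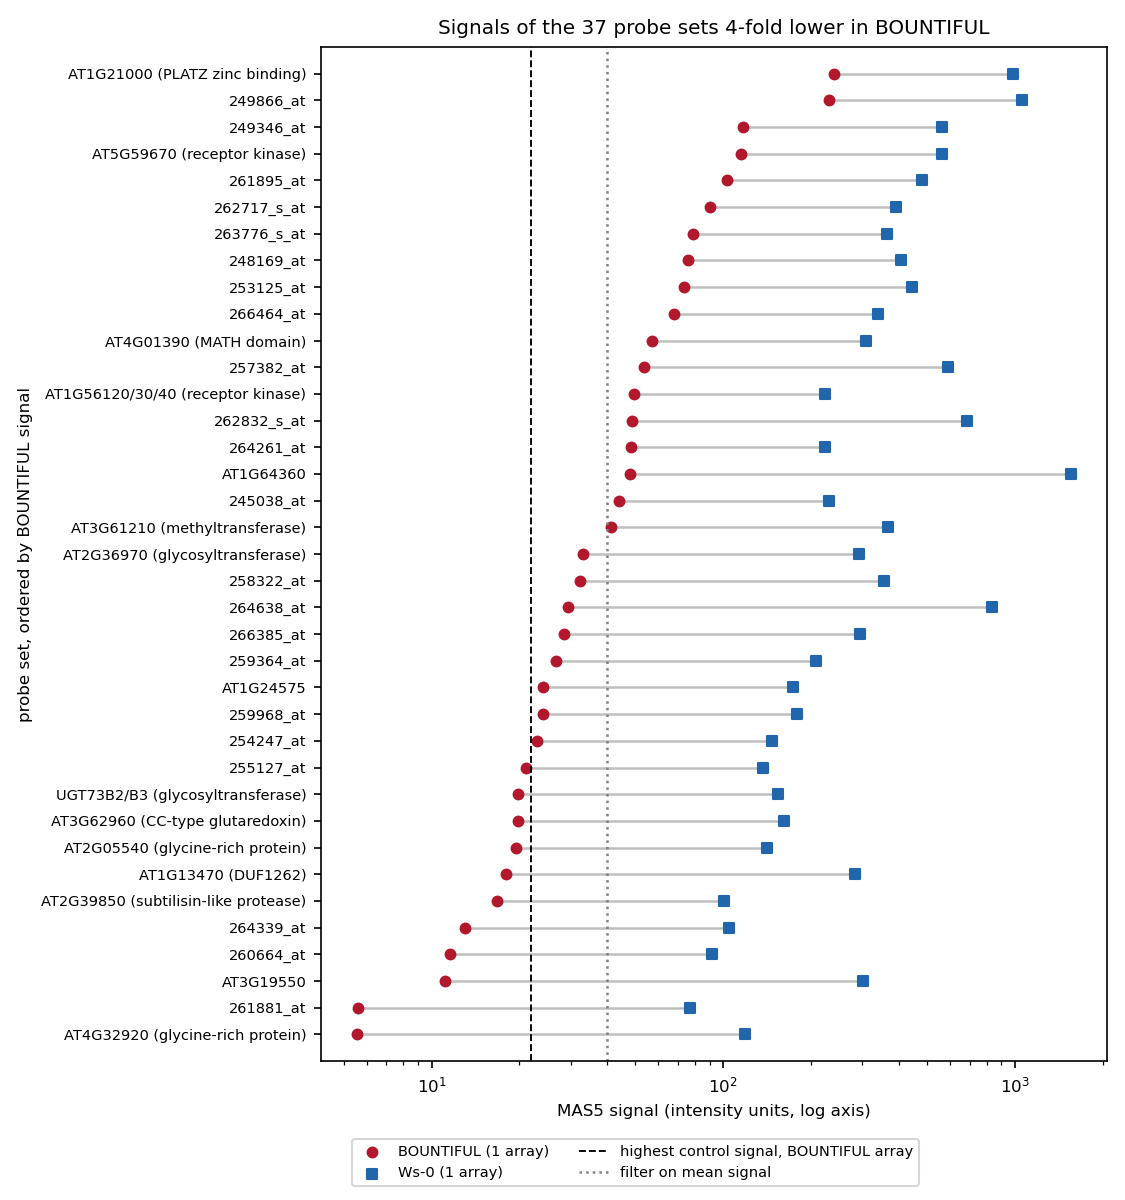
MAS5 signal (intensity units, log axis) of each of the 37 members in BOUNTIFUL (circles) and Ws-0 (squares), 1 array each, ordered by the BOUNTIFUL signal. The dashed line is the highest Bacillus subtilis control on the BOUNTIFUL array, 21.9 units, and the dotted line the limit on mean signal, 39.9 units. The 11 lowest circles lie left of the dashed line and the 18 highest lie right of the dotted line.

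The log2 ratios of the 37 members had a median of -2.45 and ran from -4.81 to -2.01, beside a median of -0.06 over all 11373 passing probe sets. At least 8-fold lower were 9 members, beside 0.0967% of all passing probe sets, and the other 28 lay between 4-fold and 8-fold. These folds are on the scale with the pseudocount, which makes the folds of low signals smaller, and with none the 8-fold count was 14. Because 19 of the 37 members had a BOUNTIFUL signal under 39.9 units, they passed the limit on mean signal only through Ws-0. Most members were bright in Ws-0, which the choice favours, and 2 of the 37 had less than 100 units there. Of 6451 passing probe sets with at least 100 units in Ws-0, 35 (0.543%) were members, as were 8 of 1285 (0.623%) with at least 500 units and 2 of 531 (0.377%) with at least 1000 units.

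**Figure D2:**
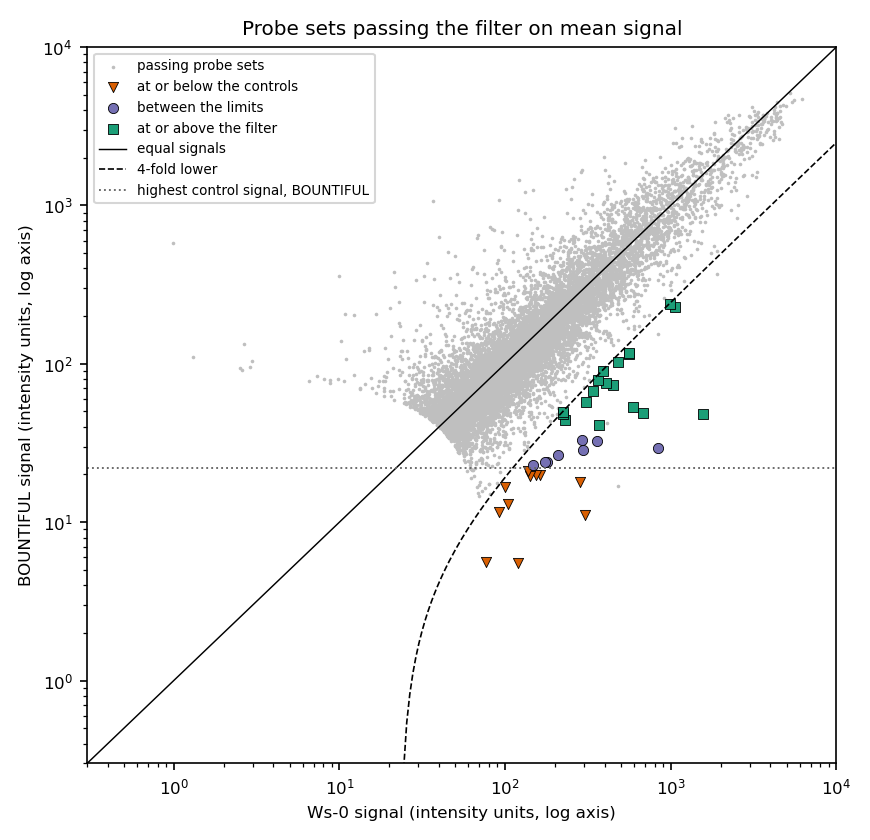
BOUNTIFUL signal against Ws-0 signal (intensity units, log axes) of the 11373 passing probe sets, 1 array each, with the 37 members marked by their BOUNTIFUL level. The members lie on the lower side of the dashed 4-fold line, which bends down at low signals because of the pseudocount, and the 11 triangles lie below the dotted line at the highest control signal of 21.9 units. Unmarked points below the dashed line are the 4 genes left out by name.

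The platform annotation assigned 13 members to 1 gene, 2 to several genes and none to the other 22. Those with 1 gene made up 35.1% of the members and 53.0% of all passing probe sets, so the account by function rests on a minority of the members. For 12 of the 15 annotated probe sets a general protein class is known. They comprised 2 probe sets of receptor kinases, 2 of glycosyltransferases, 2 of glycine-rich proteins, 3 of other enzymes and 3 of proteins named after a conserved domain. Both receptor kinase probe sets were still expressed in BOUNTIFUL and both glycine-rich ones were near background. The 13 genes were spread over all chromosomes, with 4 on chromosome 1, 3 each on chromosomes 2 and 3, 2 on chromosome 4 and 1 on chromosome 5.

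Leucine-rich repeat receptor kinases sit in the plasma membrane, with an outer domain of leucine-rich repeats that can bind ligands and an inner kinase domain that passes the signal on. Plants carry a large family of them, with members in growth, immunity and symbiosis. AT5G59670, of the subfamily called I, had 115 units in BOUNTIFUL and 562 units in Ws-0, a log2 ratio of -2.22. Its BOUNTIFUL signal was far above the controls and stood at the 75.5th percentile of that array. Probe set 262082_s_at, which reads the neighbouring receptor kinase genes AT1G56120, AT1G56130 and AT1G56140 together, had 49.3 units in BOUNTIFUL and 223 units in Ws-0. Its log2 ratio of -2.01 was close to the limit, and the array cannot say which of these genes it came from.

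Of the 22 subfamily I receptor kinase genes listed for comparison, 17 were named on the array and 2 passed the limit on mean signal. The other one that passed was AT1G51805, with 271 units in BOUNTIFUL and 665 units in Ws-0, a log2 ratio of -1.27. AT1G51805, the 1 passing relative that the choice of members had not fixed, was thus 2-fold lower, as were 3.98% of all passing probe sets. With the newer or the older hybridisation spikes set equal, AT5G59670 alone of this pair stayed 2-fold lower. Next to AT5G59670 on the chromosome, AT5G59680 of the same subfamily had 1.44 units in BOUNTIFUL and 20.6 units in Ws-0. Its Ws-0 signal was only a little above the controls of that array. AT5G59660 and AT5G59650, on the other side, had log2 ratios of 0.06 and -0.33 and signals of at most 37.7 units, below the limit on mean signal.

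UDP-glycosyltransferases attach sugars to small molecules such as hormones and phenolic compounds, which changes their solubility, storage or activity. AT2G36970, known as UGT86A1, had 33.2 units in BOUNTIFUL and 292 units in Ws-0, a log2 ratio of -2.87. Probe set 253268_s_at reads UGT73B2 and UGT73B3 together, close copies whose enzymes act on flavonoids among other substrates. It had 19.8 units in BOUNTIFUL, near background, and 154 in Ws-0, which is at least 7.04-fold lower when set against the highest control signal. Such a bound uses no pseudocount, so it can exceed the fold with the pseudocount, here 5.87. It holds for the deposited scaling only. Neither probe set was as bright in BOUNTIFUL as the limit of 39.9 units.

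Most other glycosyltransferases read here lay closer to equal signals. Of 47 genes whose symbol begins with UGT and that had a probe set of their own, 17 passed the limit on mean signal. All 17 lay within 2-fold, with log2 ratios from -0.96 for UGT72E1 (AT3G50740) to 0.91 for UGT76C2 (AT5G05860) and a median of -0.01, close to the -0.06 of all passing probe sets. Most passing probe sets also lay within 2-fold, with 3.98% of them 2-fold lower and 4.63% 2-fold higher. With no pseudocount, 1 of the 17 was 2-fold lower and 1 was 2-fold higher. The median of the 17 was 0.32 when the newer spikes were set equal and 0.50 when the older ones were. Under each of these scalings 3 of the 17 were 2-fold higher. Over all passing probe sets the medians were then 0.27 and 0.45, with 1118 and 1663 of 11373 2-fold higher. The shift was thus not particular to these genes. Below the limit, UGT85A4 (AT1G78270) had 1.06 units in BOUNTIFUL and 34.0 units in Ws-0, and UGT85A7 (AT1G22340) had 3.71 and 44.0. Both met the 4-fold limit on the ratio without being members, because their mean signals were too low. Their BOUNTIFUL signals were in the range of the controls, so these ratios rest on a background signal.

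Glutaredoxins are small proteins that reduce disulfides with glutathione. The CC-type, named after a pair of cysteines in the active site, is found in land plants, and several members interact with TGA transcription factors. AT3G62960 of this type had 19.7 units in BOUNTIFUL, near background, and 162 in Ws-0. That is at least 7.37-fold lower against the highest control signal with no pseudocount. The log2 ratio with the pseudocount was -2.62, which is 6.16-fold. Of the 20 genes listed for the type, 16 were named on the array and 9 passed the limit on mean signal. In addition to AT3G62960, AT2G47880 was 2-fold lower, with 97.3 units in BOUNTIFUL and 214 units in Ws-0. AT4G15680 was 2-fold higher, with 62.8 and 20.5 units, and the other 6 lay within 2-fold. Leaving out AT3G62960, whose ratio the selection had fixed, 1 of 8 was 2-fold lower and 1 higher, beside 3.98% and 4.63% of all passing probe sets. The median over these 8 was -0.30, and it was 0.03 when the newer spikes were set equal and 0.22 when the older ones were. The median over all passing probe sets was then 0.27 and 0.45. Under each of these scalings AT3G62960 was the single 2-fold lower one.

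The gene next to AT3G62960 on the chromosome, AT3G62950, is another CC-type glutaredoxin. It had 0.79 units in BOUNTIFUL and 25.7 units in Ws-0, a log2 ratio of -1.97, and it was below the limit on mean signal. AT3G62930, 3 genes away and of the same type, went the other way, with 23.4 units in BOUNTIFUL and 6.06 units in Ws-0. The lower signal of each of these genes was in the range of the controls, so both differences rest on a background signal. Glutaredoxin genes that lie close together can be near copies, and cross-hybridisation between them was not tested.

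The remaining enzymes were a methyltransferase and a protease. AT3G61210, of the methyltransferases that use S-adenosylmethionine, had 41.3 units in BOUNTIFUL and 367 units in Ws-0, a log2 ratio of -2.93. AT2G39850, a subtilisin-like serine protease, had 16.7 units in BOUNTIFUL and 101 units in Ws-0. This BOUNTIFUL signal was near background, and the protease gene was at least 4.59-fold lower against the highest control signal. Among the 8 other genes with a subtilase symbol on the array, SBT4.12 (AT5G59090) and SBT1.3 (AT5G51750) passed the limit on mean signal. They were higher in BOUNTIFUL, with log2 ratios of 4.36 and 0.94. SBT4.12 had 357 units in BOUNTIFUL and 9.94 units in Ws-0, in the range of the controls, so its ratio rests on a background signal. SBT1.3 had 92.6 and 44.5 units. The other 6 were below that limit, with log2 ratios from -1.28 for SBT3.5 (AT1G32940), at 17.8 and 54.3 units, and -0.79 for SBT3.12 (AT4G21326), at 18.5 and 37.7 units, to 0.73 for SBTI1.1 (AT1G01900).

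Glycine-rich proteins form a mixed class defined by repeats rich in glycine, and many of them are found in the cell wall. AT4G32920 had 5.53 units in BOUNTIFUL and 119 units in Ws-0. The BOUNTIFUL signal was the lowest of the 37 members, and the difference was at least 5.44-fold against the highest control. Its log2 ratio of -3.25 depended strongly on the pseudocount, being -4.43 with none and -2.25 with one of 24.8 units. AT2G05540 had 19.4 units in BOUNTIFUL and 141 units in Ws-0, a difference of at least 6.45-fold. Its neighbour AT2G05530 had 16.3 units in BOUNTIFUL and 16.1 units in Ws-0, in the range of the controls of both arrays.

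Among the proteins named after a conserved domain, AT1G13470 stood lowest. It encodes a DUF1262 protein, a plant family of unknown function, and had 17.9 units in BOUNTIFUL against 284 units in Ws-0, at least 12.9-fold lower. Of the 9 DUF1262 genes listed, which have neighbouring locus numbers on chromosome 1, AT1G13540 alone had another named probe set. Its signals of 9.09 and 1.08 units were in the range of the controls. AT4G01390, with a MATH domain of the kind found in TRAF proteins, had 57.0 units in BOUNTIFUL and 310 units in Ws-0, a log2 ratio of -2.29. AT1G21000, of the plant-specific PLATZ zinc-binding proteins, was the brightest member in BOUNTIFUL with 239 units against 987 in Ws-0. With a log2 ratio of -2.01 it was also the member nearest to the limit, and it passed from the 97.6th percentile of the Ws-0 array to the 87.5th of the BOUNTIFUL array.

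No role is given here for AT1G64360, AT3G19550 and AT1G24575. AT1G64360 had the lowest log2 ratio of all members, -4.81, with 48.1 units in BOUNTIFUL and 1562 units in Ws-0. It went from the 98.8th percentile of the Ws-0 array to the 55.1st of the BOUNTIFUL array, above the controls in both. AT3G19550 had 11.1 units in BOUNTIFUL and 303 units in Ws-0, at least 13.8-fold lower, the highest such bound among the near-background members. AT1G24575 was dim in BOUNTIFUL, with 24.2 units against 174 in Ws-0 and a log2 ratio of -2.51.

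Of the 22 members that the annotation does not list, 4 were near background in BOUNTIFUL, 6 were dim and 12 were still expressed. The lowest log2 ratio among them was that of 264638_at, -4.51, with 29.3 units in BOUNTIFUL and 838 units in Ws-0. Probe set 262832_s_at had 48.6 and 684 units, 257382_at had 53.4 and 589, and 258322_at had 32.4 and 357. In each of these 4 the BOUNTIFUL signal was above the controls, so their 9.07-fold to 22.8-fold differences do not rest on a signal near background. The brightest in BOUNTIFUL was 249866_at, with 230 units against 1060 in Ws-0. Probe set 249346_at followed with 117 and 561 units, 261895_at with 103 and 482, and 262717_s_at with 90.5 and 393. All 4 of the brightest were between 4.08-fold and 4.55-fold lower. Near background, 261881_at had 5.59 units in BOUNTIFUL and 77.2 units in Ws-0, the lowest Ws-0 signal of any member. Its bound of 3.52-fold was the single one under 4-fold among the 11 near-background members.

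At the limit itself, the members just inside were 262717_s_at, 262082_s_at and AT1G21000, with log2 ratios of -2.03, -2.01 and -2.01. Just outside were 246293_at, with 81.1 units in BOUNTIFUL and 344 units in Ws-0, AT5G06570 with 15.0 and 81.2, and AT1G73040 with 29.4 and 137. Their log2 ratios were -1.98, -1.97 and -1.96, so the limit separates values that differ by a few hundredths. A further 18 probe sets met the limit on the ratio below the limit on mean signal, 10 of them with 1 gene. Probe sets whose suffix marks possible binding to several transcripts made up 5 of the 37 members (13.5%) and 3.46% of all passing probe sets.

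Genes beside the members were examined by taking, for each of the 13, the nearest 2 named genes on either side within 20 genes. None of the 52 neighbours was itself a member, and 23 passed the limit on mean signal. Of these, 1 was 2-fold lower, beside 3.98% of all passing probe sets, 1 was 2-fold higher, beside 4.63%, and 21 lay within 2-fold. The lower one was GAMMA-VPE (AT4G32940), a vacuolar processing enzyme that matures and degrades proteins in the vacuole, next but one to AT4G32920. It had 834 units in BOUNTIFUL and 2529 units in Ws-0, a log2 ratio of -1.59. The higher one was WLIM2a (AT2G39900), an actin-binding LIM protein 10 genes from AT2G39850, with 218 units in BOUNTIFUL and 61.7 units in Ws-0. Below the limit on mean signal, 4 of 29 neighbours were 2-fold lower, AT3G62950, AT5G59680, AT1G24600 and AT3G19530. AT3G62930 was the 1 that was 2-fold higher. All 4 lower ones had BOUNTIFUL signals in the range of the controls, from 0.79 to 2.94 units, so their ratios rest on a background signal. The Ws-0 signals of AT1G24600 and AT3G19530, 15.1 and 10.9 units, were in that range too. No share over all probe sets below the limit is given here, so these counts are not read as a result about neighbours.

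**Figure D3:**
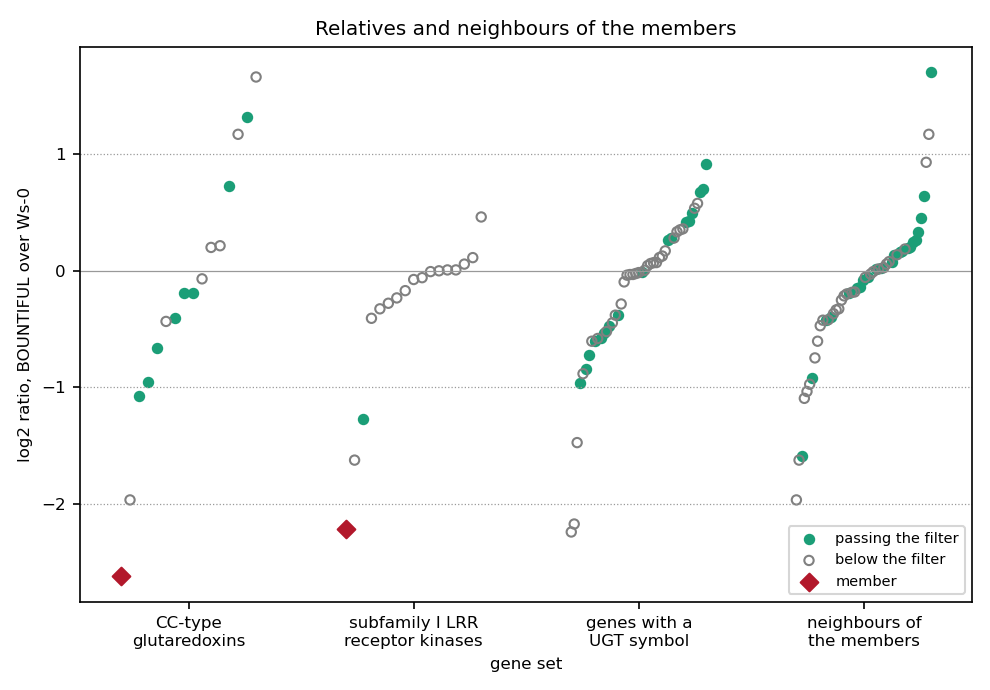
Log2 ratio of BOUNTIFUL over Ws-0 (1 array each) for the named genes of 3 families to which members belong and for the 52 neighbours of the members, each set in rising order. Filled circles passed the limit on mean signal, open circles did not, and diamonds are the members AT3G62960 (-2.62) and AT5G59670 (-2.22). Most relatives and neighbours lie between -1 and 1.

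Lists of other leaf responses were read through few genes. Of 9 senescence genes, PPDK (AT4G15530), which makes phosphoenolpyruvate, passed the limit, with 312 units in BOUNTIFUL and 989 units in Ws-0, and WRKY53 was below it with 17.8 and 33.1 units. Of 10 clock genes, GI was measured at 333 and 352 units. None of 10 salicylic acid defence genes or 6 sugar starvation genes had a probe set named here, so these responses could not be set beside the members. Probe sets for such genes may be among the 8730 that the annotation does not list, which include 22 members.

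How far below Ws-0 the members stood depended on the scaling between arrays. Hybridisation spikes, foreign transcripts put into the hybridisation mix as a technical control, had a mean log2 ratio of -0.35 over the 9 newer probe sets and -0.55 over the 9 older ones. Setting them equal moved the median of all passing probe sets by 0.33 and by 0.51. With the newer spikes equal 23 of the 37 members remained at least 4-fold lower, and with the older ones 20. Of the 18 still-expressed members 5 and 4 remained, and of the 11 near-background members 10 and 9. A pseudocount at the 40th percentile of all signals reversed the order of these shares. It left 10 of the 18 still-expressed and 5 of the 11 near-background members at least 4-fold lower. Every member kept at least a 2-fold lower signal under all 5 scalings and both other pseudocounts, with the smallest log2 difference -1.48. Members were chosen at -2 or lower, and the scalings moved the median of all passing probe sets by at most 0.51. The outcome under the scalings therefore followed from the choice, and the limits on mean signal and ratio fixed it for the pseudocounts. It is no sign of robustness.

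Under each of the 7 settings that changed the scaling or the pseudocount, 16 members stayed at least 4-fold lower, 8 of them with 1 gene. These were AT1G64360, AT3G19550, AT1G13470, AT4G32920, AT3G61210, AT2G36970, AT3G62960 and AT1G24575. The receptor kinase AT5G59670, the MATH domain gene AT4G01390 and the PLATZ gene AT1G21000, all still expressed in BOUNTIFUL, were at -1.88, -1.98 and -1.67 with the newer spikes set equal. The protease AT2G39850 and the glycine-rich AT2G05540, both near background, were at -1.60 and -1.91 with the pseudocount of 24.8 units.

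**Figure D4:**
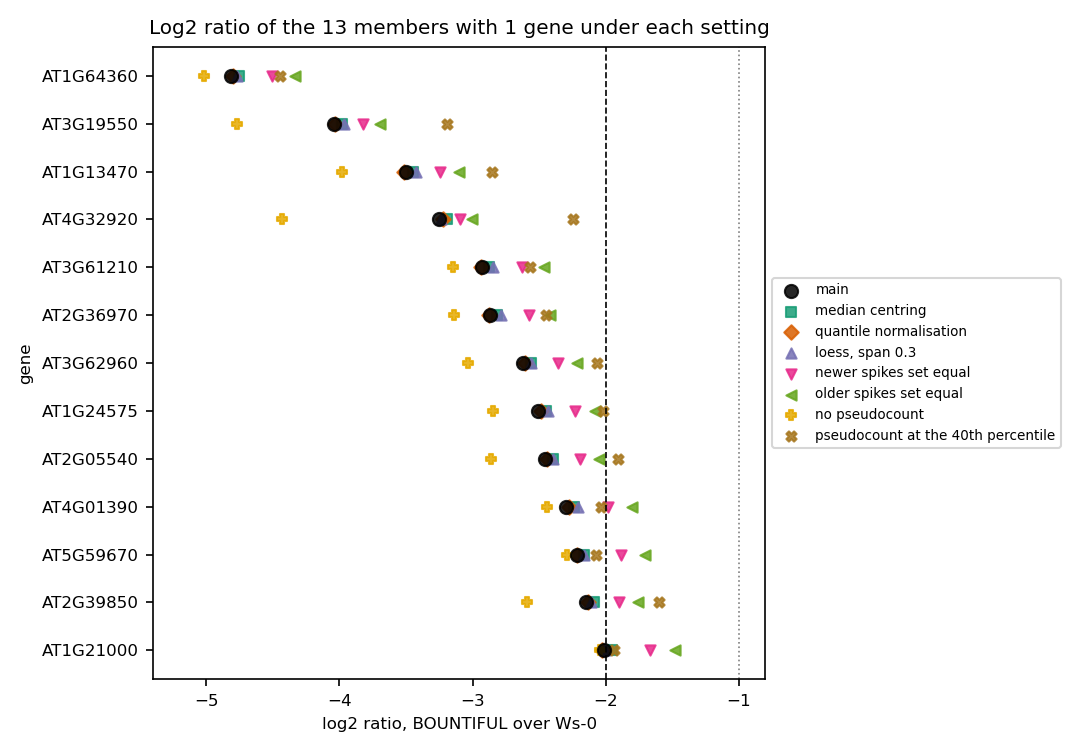
Log2 ratio of BOUNTIFUL over Ws-0 (1 array each) of the 13 members with 1 gene in the main setting (black circles) and under 5 other scalings and 2 other pseudocounts. The dashed line marks a 4-fold and the dotted line a 2-fold difference. Spread is widest for AT4G32920, from -4.43 to -2.25, and AT1G21000 reaches -1.48.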

How the data were processed

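RNA of BOUNTIFUL and Ws-0 leaves was measured on 1 array each. The authors deposited MAS5 intensity values, per the submitters' processing notes, which were linear, with a mean after trimming 2% at each end of 100.0 on both arrays. The MAS5 version and detection calls were not given in the sources used here. From these, log2(signal + 7.77) was compared, the pseudocount being the 20th percentile of all signals, for probe sets whose mean signal reached its median, 39.9 units. The arrays' number limits precision, and no p-value was computed.

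Genes were assigned from a platform annotation of 2016 (13513 with 1 gene, 503 with several, 8730 not listed), and 13484 of those with 1 gene were matched to a TAIR10.1 gene table. Neighbours are by gene order in that table. Members and lists were chosen with earlier results of these data known. All members with 1 gene are named, and of the rest the 4 lowest and 4 brightest in BOUNTIFUL. Singled out beyond that rule, after their values were seen, were 261881_at and the subtilase genes. So were relatives and neighbours below the limit on mean signal, such as UGT85A4 and UGT85A7. "At least" folds divide the Ws-0 signal by the highest control signal of the BOUNTIFUL array, with no pseudocount and on the deposited scaling. They can therefore exceed the folds with the pseudocount, and setting the spikes equal would lower them. Calculations used Python 3.11.15 and pandas 2.3.3. The selection code was checked on simulated data with 8-fold changes put into bright probe sets. That check says nothing about smaller folds or dim signals. Protein, promoter and paralogue sequences were not used here.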

Additional observations from a re-analysis of the deposited data

How the results depend on the processing

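No paired analysis was possible because there was 1 array per genotype, which also meant that no array could be left out. The count of 37 was 23 when the newer spikes were set equal and 20 when the older ones were, 60 with no pseudocount (all 37 members and 23 more), and 22 with a pseudocount at the 40th percentile. These follow from the alternatives' construction, since 1 factor multiplies every BOUNTIFUL signal and a pseudocount acts most on low ones. It was 33 after median centring, 36 after quantile normalisation, 34 after loess, 55 with no filter, 25 with a filter at the 75th percentile and 32 without probe sets of possible cross-hybridisation. The members' median log2 ratio ran from -2.86 to -2.05. Of the 37, 11 were near background, 14 with the limit at the 40th percentile of BOUNTIFUL signals (25.0 units) and 2 at the 20th (7.81 units). For the 13 members with 1 gene, all 91 values under the alternatives were at least 2-fold lower, which follows from their choice by this ratio. By the limit at the highest control, signals under about 21.9 units cannot be told from background. The median control was lower, with 1.27 units in BOUNTIFUL and 2.45 units in Ws-0.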
